A study of Mus musculus with 8 samples.

Results

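The genes described here are 6 epithelial genes whose products face intraepithelial lymphocytes (IELs): the butyrophilin-like genes Btnl1, Btnl2, Btnl4 and Btnl6, the herpesvirus entry mediator gene Tnfrsf14 (HVEM) and the E-cadherin gene Cdh1. They were chosen by name, as the rows of the deposited count table that carry these symbols, and make up 6 of the 25239 genes listed. All 6 had enough counts to be tested. They were measured by bulk RNA-seq in intestinal epithelial cells (IECs) of the proximal small intestine, sorted as EpCAM+ cells lacking CD45, CD31 and Ter119, with 150000 cells in each sample. The samples came from 4 CD1d-KO mice (genotype label CD1d1/2 KO, animals without the lipid-presenting molecule CD1d and so without NKT cells) and 4 wild-type (WT) C57BL/6Jax mice, all untreated and between 7 and 10 weeks of age by the study's methods. No label restricts the knockout to a cell type, so a lack of CD1d on the IECs and a lack of NKT cells cannot be told apart. The isolation enriched for crypts of the duodenum, and the samples came from 2 individual experiments, but the sources used here do not say which sample belongs to which.

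IELs are T cells lodged between the epithelial cells. Butyrophilin-like proteins belong to the immunoglobulin superfamily and sit on the enterocyte surface in pairs. In mouse small intestine Btnl1 pairs with Btnl6 or with Btnl4, and the Btnl1 and Btnl6 pair is known for selecting and maintaining the main γδ T cell population among the IELs. Btnl2 is a related protein best known for restraining T cell activation. HVEM, a receptor of the TNF receptor family, binds CD160 and BTLA on lymphocytes and the TNF family ligand LIGHT. E-cadherin joins epithelial cells at adherens junctions and is the ligand of the integrin CD103 (αE, encoded by Itgae, with β7), which holds IELs in the epithelium.

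The targeted gene was checked first. Cd1d1 had 8, 3, 5 and 0 counts in CD1d-KO samples 1 to 4 and 81, 70, 94 and 50 in WT samples 1 to 4, so no sample went against its label. Total counts ranged from 23610266 to 31629435 per sample, and summed normalised counts of 8 epithelial identity genes from 305330 to 343657. Summed markers of B and plasma cells and of stomach did not overlap between the genotypes. Those of IELs, myeloid cells, stroma and erythroid cells overlapped. The summed normalised count of 16 IEL markers was 129 to 265 in CD1d-KO and 176 to 889 in WT samples, that of B and plasma cell markers 38.1 to 62.9 and 94.0 to 595, and that of 12 stomach markers 779 to 1704 and 2664 to 17754. CD1d-KO 1 and 2 were the only 2 samples with Y-linked transcripts, with a mean of 1394 and 1737 normalised counts over the Y-linked genes against at most 0.262 elsewhere, although the methods describe matched sexes. Sex and these samples cannot be told apart, and results are therefore also given without them.

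The 4 butyrophilin-like genes lay close together on chromosome 17 (mm10 coordinates of the table). Btnl2 (chr17:34354822-34369492, plus strand, 9 exons) and Btnl1 (chr17:34377132-34386028, plus strand, 10 exons) were followed by BC051142 (chr17:34398820-34460734, plus strand), Btnl4 (chr17:34469042-34475937, minus strand, 9 exons), the pseudogene Btnl5-ps (chr17:34487406-34497429, minus strand) and Btnl6 (chr17:34507935-34517352, minus strand, 9 exons). Tnfrsf14 (chr4:154922210-154928077, minus strand, 8 exons) and Cdh1 (chr8:106603350-106670247, plus strand, 16 exons) were on other chromosomes. None of the 6 overlapped another listed gene.

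Windows before the starts of the butyrophilin-like genes are shown because they split the cluster by sequence. RefSeq promoter windows (GRCm38.p6, the assembly whose coordinates are mm10) were matched for 5 of the 6 genes, all but Cdh1. The 250 bases before the start of each gene as counted are printed 5′ to 3′ on the gene's strand. Capitals mark the core CAAAGTC bound by the enterocyte factors HNF4A and HNF4G. The RefSeq spans of Btnl4, Btnl6 and Tnfrsf14, all on the minus strand, reach further, to positions 34477428, 34518776 and 154928620. The windows of these genes therefore lie inside the RefSeq spans, and the bases before those spans were not examined.
Btnl2 (chr17:34354572-34354821, plus strand): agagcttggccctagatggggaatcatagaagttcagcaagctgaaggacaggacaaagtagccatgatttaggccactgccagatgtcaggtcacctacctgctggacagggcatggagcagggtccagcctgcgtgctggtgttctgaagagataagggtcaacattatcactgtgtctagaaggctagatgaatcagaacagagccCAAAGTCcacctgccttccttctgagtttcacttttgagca
Btnl1 (chr17:34376882-34377131, plus strand): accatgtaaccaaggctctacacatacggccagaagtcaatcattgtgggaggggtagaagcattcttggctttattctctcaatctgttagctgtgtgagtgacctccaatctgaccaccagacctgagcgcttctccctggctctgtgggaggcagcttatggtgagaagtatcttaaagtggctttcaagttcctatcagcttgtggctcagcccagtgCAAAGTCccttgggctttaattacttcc
Btnl4 (chr17:34475938-34476187, minus strand): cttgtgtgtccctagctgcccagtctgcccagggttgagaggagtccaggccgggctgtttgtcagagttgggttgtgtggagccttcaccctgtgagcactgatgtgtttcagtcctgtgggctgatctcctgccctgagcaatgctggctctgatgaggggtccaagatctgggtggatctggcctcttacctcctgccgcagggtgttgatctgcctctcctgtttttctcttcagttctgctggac
Btnl6 (chr17:34517353-34517602, minus strand): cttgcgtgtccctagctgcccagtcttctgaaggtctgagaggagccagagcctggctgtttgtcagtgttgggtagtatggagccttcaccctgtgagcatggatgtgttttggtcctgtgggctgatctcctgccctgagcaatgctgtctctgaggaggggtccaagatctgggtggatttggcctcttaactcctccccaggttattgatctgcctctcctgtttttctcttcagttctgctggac
The Btnl4 and Btnl6 windows were 90.5% identical, whereas every other pair among the 5 windows shared 48.4% to 52.9%. The HNF4 core stood on the gene's strand with its first base 28 bases before the start of Btnl1 and 41 before the start of Btnl2. It was not found on either strand of the Btnl4, Btnl6 or Tnfrsf14 windows. Of all 32851 RefSeq windows of 300 bases, 4.44% held it on at least 1 strand. The CDX core TTTATNG, held by 10.9% of windows, was found in none of the 5. A match describes letters in the window only.

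The transcripts split in the same way. GENCODE transcripts of Btnl4 and Btnl6 were 89.3% identical over the aligned stretch with an identical run of 69 bases, and each was 89.0% to 89.8% identical to Btnl5-ps with runs of 106 and 88 bases. A further pseudogene, Btnl7-ps, which has no row in the count table, was 88.0% identical to Btnl4 and 90.6% to Btnl6, with runs of 116 and 100 bases. Btnl1 and Btnl2 were 54.6% to 59.7% identical to the other cluster transcripts, with no shared run above 19 bases. The counting took the primary alignment of each fragment and did not use strand. Counts of Btnl4, Btnl6 and Btnl5-ps may therefore hold fragments of one another or of Btnl7-ps and are uncertain to that extent.

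All 6 genes were well expressed. In fragments scaled to exon length and sequencing depth (FPKM), the mean over the 8 samples was 349 for Cdh1, 92.6 for Btnl6, 77.6 for Btnl1, 47.8 for Tnfrsf14, 46.5 for Btnl4 and 28.5 for Btnl2. Cdh1 ranked 179 and Btnl6 766 among 19088 genes with counts, and the lowest of the 6, Btnl2, ranked 2965. Tnfrsf14 and Btnl4 could not be ordered, since their FPKM ranges overlapped in both genotypes and Tnfrsf14 was the higher in 4 of 8 samples. Btnl6 exceeded Btnl1 in 8 of 8 samples although their CD1d-KO ranges overlapped. The other neighbours in the order did not overlap in either genotype.

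**Figure D1:**
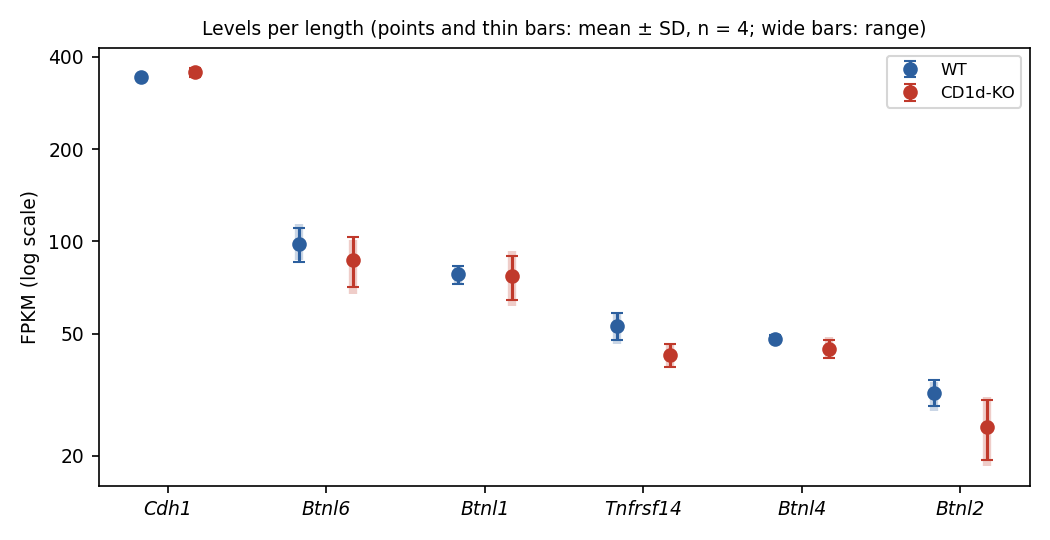
Level of each gene in FPKM on a log axis for WT (blue) and CD1d-KO (red), with points and thin bars for the mean ± SD (n = 4) and wide bars for the range. Cdh1 stood above the rest at a mean of 349 FPKM over all samples and Btnl2 lowest at 28.5, with Tnfrsf14 and Btnl4 overlapping.

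The comparison of CD1d-KO with WT asked whether IECs express these IEL-facing genes differently when CD1d and NKT cells are absent. None of the 6 genes passed the test (DESeq2, Benjamini-Hochberg adjusted p under 0.05), against 4.03% of all 15446 genes tested and 4.77% of those averaging 1000 normalised counts or more. Btnl2 and Tnfrsf14 lay below WT with unadjusted p under 0.05, which 15.3% of genes tested reached, and edgeR also called 0 of the 6 (1.66% of all genes in its fit). Of the 6 fitted log2 fold changes 5 were below 0, as were 49.7% of all tested, and their median was -0.13 beside 0.000995 for all genes tested. The groups overlapped for all 6, while 9.61% of genes tested had groups that did not. In bulk samples fewer cells of a type and less RNA per cell cannot be told apart.

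**Figure D2:**
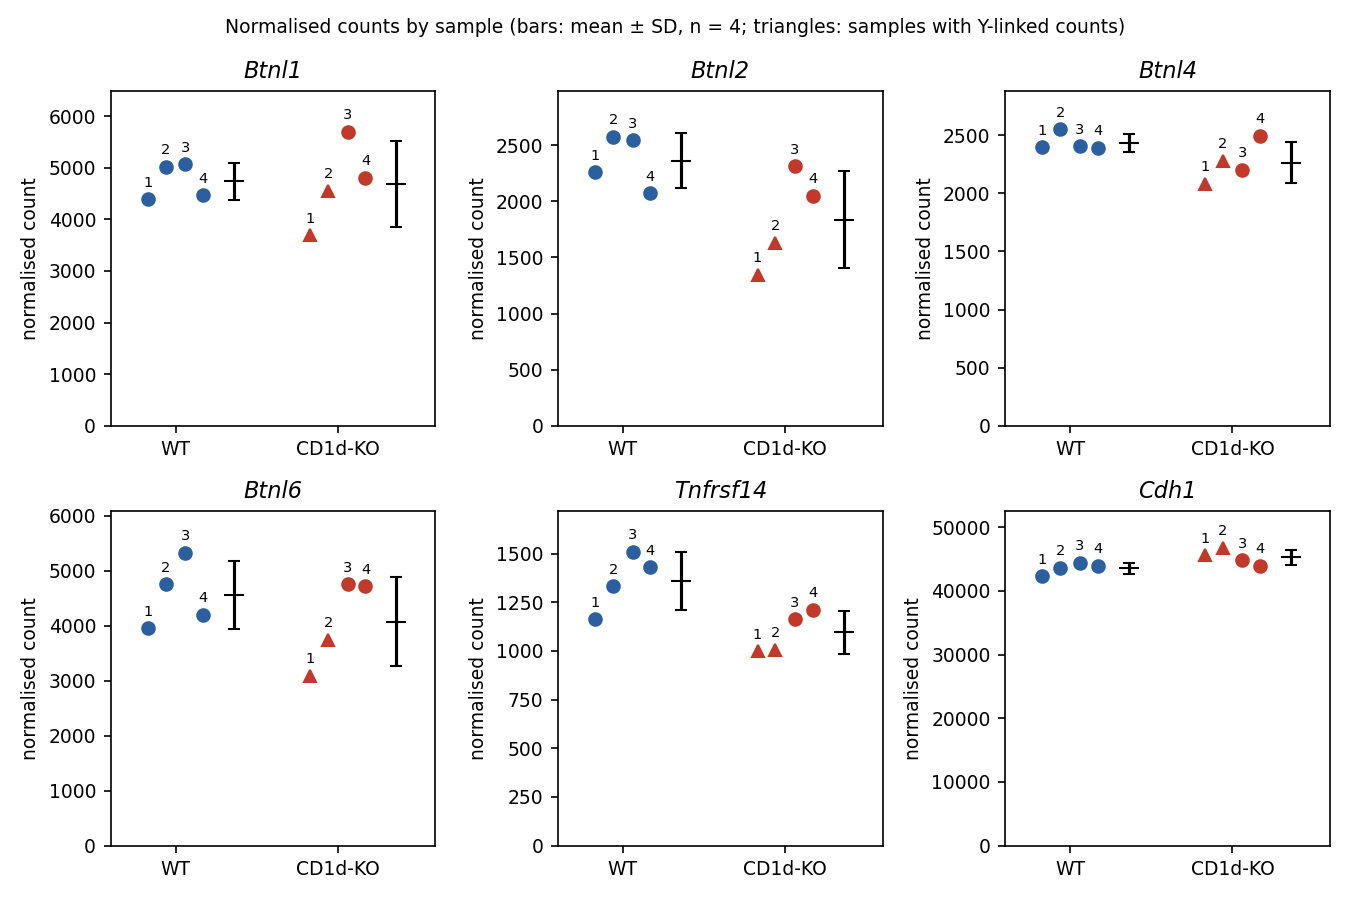
Normalised counts of each gene in the 4 WT (blue) and 4 CD1d-KO (red) samples, numbered by replicate, with bars for the mean ± SD (n = 4) and triangles for the 2 samples with Y-linked counts. For Btnl2, Btnl4 and Tnfrsf14 3 of the 4 CD1d-KO samples lay below every WT sample, and for Cdh1 3 lay above. The share of all genes with 3 of 4 CD1d-KO samples outside the WT range was not computed.

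Btnl1, the shared partner of the butyrophilin-like pairs, had 3692, 4551, 5703 and 4807 normalised counts in CD1d-KO samples 1 to 4 and 4390, 5021, 5068 and 4470 in WT samples 1 to 4. CD1d-KO 1 was the lowest and CD1d-KO 3 the highest of the 8 samples, so the CD1d-KO samples spanned the WT range on both sides. The highest CD1d-KO sample was 1.54 times the lowest, against 1.15 times in WT. The log2 fold change was -0.02 ± 0.12 (SE), with a 95% interval from -0.24 to 0.21 and an adjusted p of 0.98, which bounds the ratio of CD1d-KO to WT between 0.845 and 1.16. Without the 2 samples carrying Y-linked transcripts the value was 0.15 with an adjusted p of 0.666, in a fit that called 2.57% of all genes.

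Btnl6, which pairs with Btnl1, had 3084, 3745, 4748 and 4716 normalised counts in CD1d-KO and 3953, 4748, 5326 and 4192 in WT samples. The 2 samples with Y-linked counts, CD1d-KO 1 and 2, were below every WT sample, while the other CD1d-KO samples lay inside the WT range. Its log2 fold change was -0.16 ± 0.14 (95% interval -0.43 to 0.11, adjusted p = 0.657), and 0.06 without those 2 samples (adjusted p = 0.933).

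For Btnl4, the other partner of Btnl1, the CD1d-KO samples held 2084, 2280, 2203 and 2494 normalised counts and the WT samples 2395, 2553, 2405 and 2393. It varied least among the 4 butyrophilin-like genes, with a coefficient of variation of 7.62% in CD1d-KO and 3.19% in WT. Of the CD1d-KO samples 3 lay below the lowest WT sample and CD1d-KO 4 lay within the WT range. The log2 fold change was -0.11 ± 0.07 with an interval from -0.24 to 0.03 and an adjusted p of 0.524, and it was -0.05 without CD1d-KO 1 and 2 (adjusted p = 0.919). Btnl5-ps, its neighbour with an 89.0% identical transcript, had a log2 fold change of -0.10 ± 0.09 (adjusted p = 0.696). At 5529 to 6895 normalised counts in CD1d-KO against 5962 to 7565 in WT samples, it had more counts than any of the butyrophilin-like genes. Scaled to length, its mean FPKM was 83.1 in CD1d-KO and 89.2 in WT, beside 87.3 and 97.9 for Btnl6. The ranges overlapped in CD1d-KO (75.4 to 91.5 against 67.3 to 101 for Btnl6) and in WT (81.7 to 101 against 86.7 to 114). The scaling used a counted length of 2592 bases for Btnl5-ps, whose GENCODE transcript held 1751, so these genes could not be ordered.

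Btnl2 showed the most negative log2 fold change of the 6 genes. Its normalised counts were 1345, 1633, 2316 and 2053 in CD1d-KO against 2262, 2578, 2547 and 2072 in WT samples, a mean of 1837 ± 432 against 2365 ± 241 (SD, n = 4). CD1d-KO 1, 2 and 4 lay below the lowest WT sample, and CD1d-KO 3 lay between WT 1 and WT 3. The log2 fold change was -0.37 ± 0.15 (95% interval -0.65 to -0.08, unadjusted p = 0.0121, adjusted p = 0.155). Without CD1d-KO 3 it was -0.50 and passed the test (adjusted p = 0.00874, with 4.64% of genes called in that fit), and without the 2 samples carrying Y-linked transcripts the value was -0.11 (adjusted p = 0.814). Those 2 samples averaged 1489 normalised counts and the other CD1d-KO samples 2184.

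Tnfrsf14 came nearest to the threshold. It had 999, 1007, 1162 and 1212 normalised counts in CD1d-KO and 1163, 1332, 1510 and 1430 in WT samples, a mean of 1095 ± 108 against 1359 ± 149 (SD, n = 4). CD1d-KO 3 was just below WT 1, the lowest WT sample, and CD1d-KO 4 was the sole sample to overlap the WT range. The log2 fold change was -0.31 ± 0.10 with a 95% interval from -0.51 to -0.11 and an adjusted p of 0.0555. It passed with a filter on low counts (adjusted p = 0.0494, 4.57% of genes called) and when CD1d-KO 3 (adjusted p = 0.0482), CD1d-KO 4 (0.0269) or WT 1 (0.00675) was left out, in fits that called 4.64%, 4.06% and 2.65% of genes. Without the 2 samples carrying Y-linked transcripts the value was -0.19 (adjusted p = 0.594).

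Cdh1 was the steadiest of the 6. Its normalised counts were 45587, 46747, 44806 and 43966 in CD1d-KO against 42317, 43585, 44397 and 43907 in WT samples. CD1d-KO 1, 2 and 3 lay above the highest WT sample, and the whole range over 8 samples was a factor of 1.10. The log2 fold change was 0.06 ± 0.04 (95% interval -0.03 to 0.14, adjusted p = 0.612), which bounds the CD1d-KO level between 0.98 and 1.10 times that of WT. Leaving out CD1d-KO 1 and 2 gave 0.03 (adjusted p = 0.944).

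The values of the 6 genes were set beside Y-linked counts and IEL markers in the same samples. CD1d-KO 1 and 2 were both below every WT sample for 4 of the 6 genes, Btnl2, Btnl4, Btnl6 and Tnfrsf14, which held for 14.8% of genes tested. CD1d-KO 1 and 2 also had the lowest summed IEL markers, at 129 and 137 normalised counts against 190 and 265 in CD1d-KO 3 and 4. Among WT samples the IEL sum was highest in WT 1 at 889 and lowest in WT 4 at 176. Of the WT samples, WT 1 was lowest for Btnl1, Btnl6, Tnfrsf14 and Cdh1, and WT 4 for Btnl2 and Btnl4. The part of these markers in the results was not tested.

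**Figure D3:**
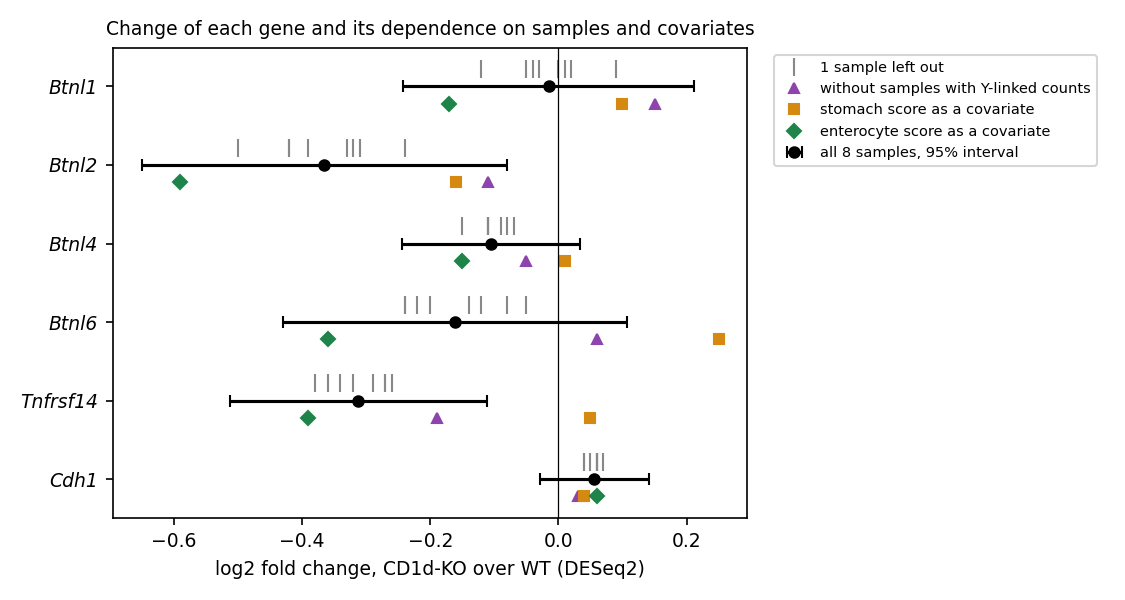
Log2 fold change of CD1d-KO over WT for each gene (DESeq2), with black points and 95% intervals for all 8 samples, grey ticks for fits that left out 1 sample, and coloured symbols for the fits without the samples with Y-linked counts or with a marker score as a covariate. Cdh1 stayed between 0.03 and 0.07 over all alternatives, and Btnl2 ranged from -0.59 to -0.11.

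Because villus enterocytes are the main site of butyrophilin-like expression, the genes were also set against a score of 24 enterocyte markers, the mean of their centred log2 levels. The score was -0.28, 0.06, 0.31 and 0.28 in CD1d-KO against -0.22, 0.07, 0.08 and -0.30 in WT samples, so both genotypes held low samples. Btnl1 followed it across the 8 samples with Pearson's r = 0.80 (exact permutation p = 0.012, 0.073 adjusted over the 6 genes) and Spearman's rho = 0.86 (exact p = 0.011, adjusted 0.064). Without CD1d-KO 1 and WT 4, the samples farthest from the median score, r was 0.75 over 6 samples. For Btnl6 r was 0.65 (exact permutation p = 0.078, adjusted 0.23) and rho 0.64 (p = 0.096), and r was 0.51 without those samples. Btnl2 had r = 0.40 (exact permutation p = 0.33) and rho = 0.43 (p = 0.30), and its r was -0.03 without them. The r of Btnl4, Tnfrsf14 and Cdh1 was 0.23, 0.05 and 0.17 (exact permutation p from 0.58 to 0.90), with rho of 0.29, 0.10 and 0.14. No adjusted p was under 0.05. These values pool the genotypes, so a difference between genotypes can mask a relation within them. In order of rising score, Btnl2 had 1345, 1633, 2053 and 2316 normalised counts in CD1d-KO samples 1, 2, 4 and 3. In WT samples 4, 1, 2 and 3 it had 2072, 2262, 2578 and 2547. Btnl1 and Btnl6 also rose in this order in CD1d-KO, while Btnl4, Tnfrsf14 and Cdh1 did not rise throughout. Within a genotype there were 4 samples, too few for a correlation.

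With the enterocyte score as a covariate, 3 of the 6 genes passed the test, in a fit that called 5.62% of all genes. Btnl2 was at -0.59 (adjusted p = 4.14e-10), Btnl6 at -0.36 (adjusted p = 6.94e-05) and Tnfrsf14 at -0.39 (adjusted p = 0.00402). Btnl1, Btnl4 and Cdh1 did not pass in that fit. Of the 24 markers in the score none was called, but 20 had log2 fold changes above 0. Their median was 0.16 beside 0.000995 for all genes tested, so the score leaned with genotype. The part of this lean in the adjusted values was not tested. With a score of stomach markers as the covariate none passed, in a fit that called 0.659% of genes, and Tnfrsf14 was at 0.05 and Btnl6 at 0.25. The stomach score was -3.30 to 0.27 in CD1d-KO and 1.04 to 4.20 in WT samples without overlap, so that score and genotype cannot be told apart.

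**Figure D4:**
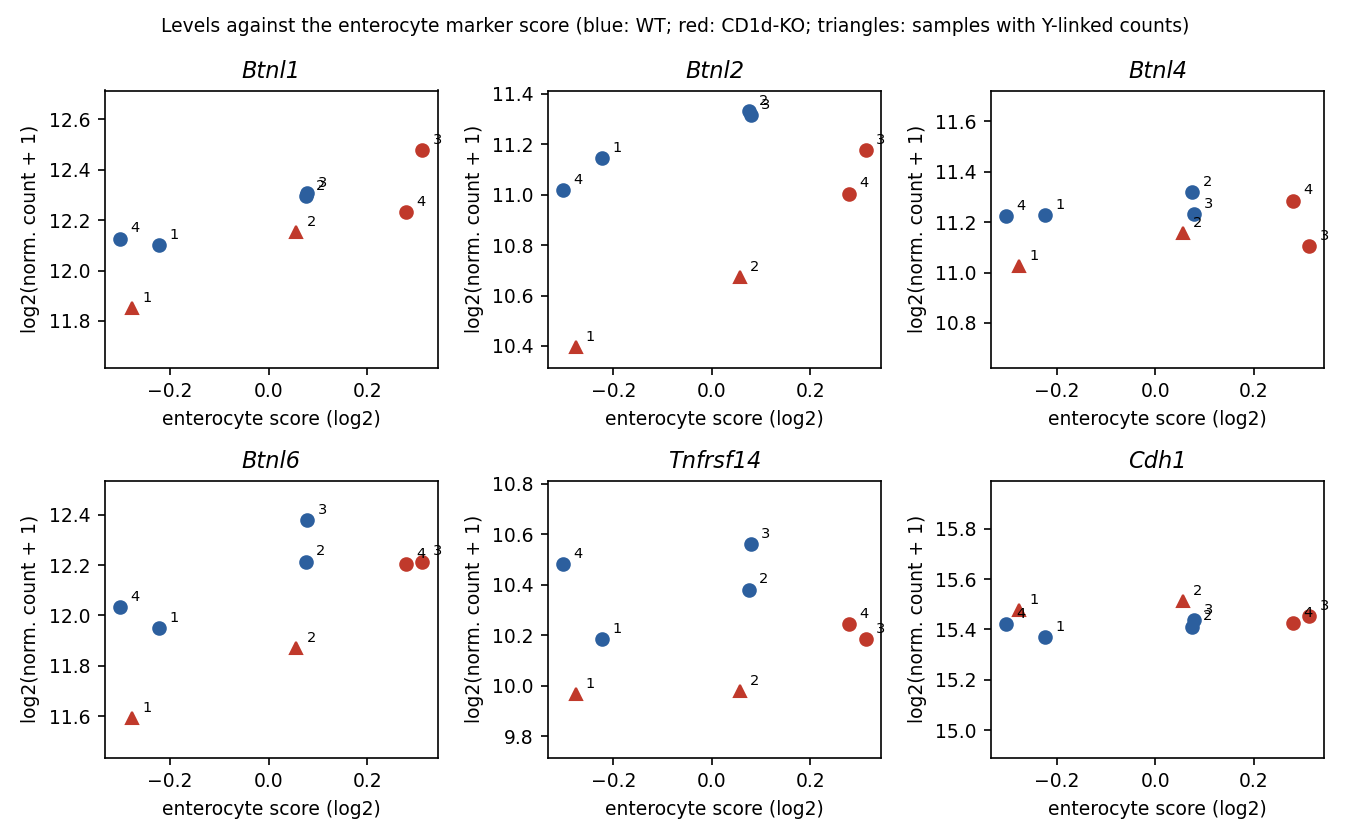
Log2 normalised count of each gene against the enterocyte marker score in the 4 WT (blue) and 4 CD1d-KO (red) samples, with triangles for samples with Y-linked counts and the same height of axis in all panels. Btnl1 rose with the score over both genotypes (r = 0.80), while Tnfrsf14 and Cdh1 did not follow it (r = 0.05 and 0.17).

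Ratios between the genes within a sample asked whether the members moved in step. Of 15 pairs of the 6 genes, 1 had ratios that did not overlap between genotypes. The share over pairs of all genes was not computed, and 9.61% of single genes tested did not overlap. The ratio of Btnl1 to Btnl2 normalised counts was 2.75, 2.79, 2.46 and 2.34 in CD1d-KO against 1.94, 1.95, 1.99 and 2.16 in WT samples. The mean log2 ratio was 1.37 ± 0.12 in CD1d-KO and 1.01 ± 0.07 in WT (SD, n = 4), a difference of 0.36 (exact permutation test, two-sided p = 0.0286, the smallest 4 against 4 samples allow, and 0.214 adjusted over the 15 pairs). No pair passed after adjustment, but a pair could pass only if most of the 15 pairs reached that smallest p. The adjusted test therefore could not decide whether a single pair changed. The share of Btnl2 in the summed FPKM of the 4 butyrophilin-like genes rests on the same Btnl2 counts and was not tested. It was 9.79%, 9.96%, 11.6% and 10.8% in CD1d-KO against 13.1%, 12.96%, 12.3% and 11.8% in WT samples.

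The ratio of the pairing partners Btnl1 and Btnl6 was 1.20, 1.22, 1.20 and 1.02 in CD1d-KO against 1.11, 1.06, 0.952 and 1.07 in WT samples, and the genotypes overlapped (exact permutation p = 0.114, adjusted 0.238). That of Btnl4 to Btnl6 ran from 0.464 to 0.676 in CD1d-KO and from 0.452 to 0.606 in WT (exact permutation p = 0.629), with CD1d-KO 3 and WT 3 lowest in their genotypes. Summed over the 4 genes, CD1d-KO samples held 10205, 12209, 14969 and 14070 normalised counts and WT samples 13000, 14900, 15347 and 13127, with CD1d-KO 1 and 2 below the lowest WT sample.

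**Figure D5:**
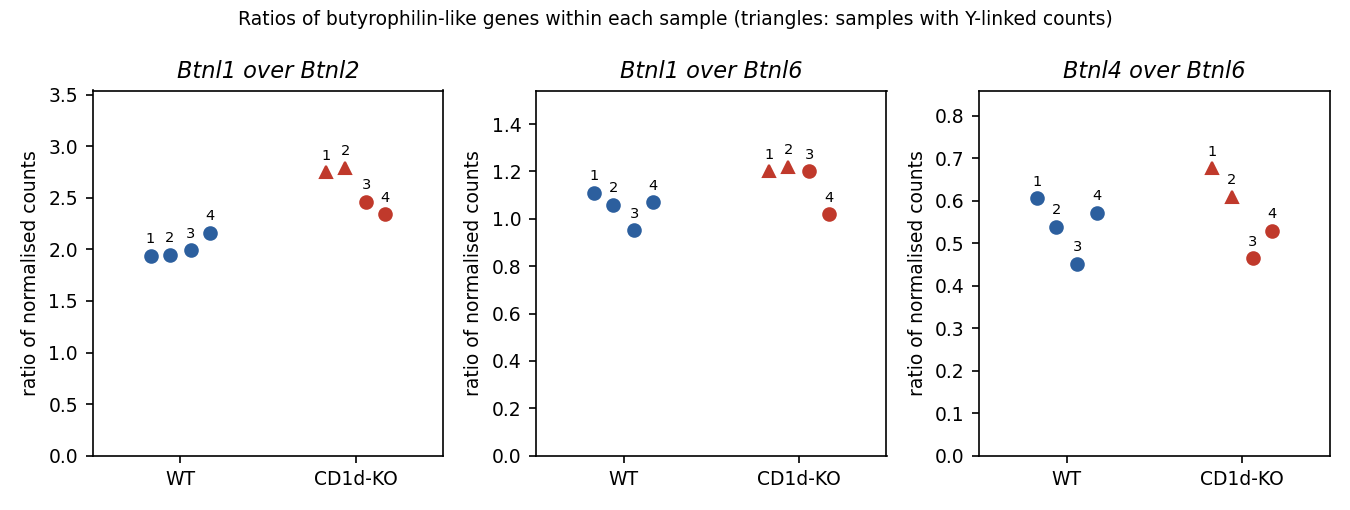
Ratio of normalised counts within each sample for 3 pairs of butyrophilin-like genes in WT (blue) and CD1d-KO (red) samples, numbered by replicate, with triangles for samples with Y-linked counts. The Btnl1 to Btnl2 ratio was 2.34 to 2.79 in CD1d-KO and 1.94 to 2.16 in WT, and the other ratios overlapped.

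Apart from Btnl5-ps, the other butyrophilin relatives had few counts or none. Of 18 further family genes in the table, 13 had at most 3 counts in every sample and 4 were tested, with none called and a median log2 fold change of -0.31. Besides Btnl5-ps these were Btnl9, a relative known from endothelial and fat tissue, with 7.78 ± 1.31 normalised counts in CD1d-KO and 2.11 ± 0.82 in WT (SD, n = 4, log2 fold change 1.89, adjusted p = 0.172), Btnl10 (-0.53, adjusted p = 0.857) and the milk fat globule gene Btn1a1 (-0.52, adjusted p = 0.873), all at 12 counts or fewer in a sample.

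Over all genes tested, 2.38% were called lower and 1.65% higher in CD1d-KO, which is the background for this list and those below. Of 11 tested partners and signalling genes of HVEM, 2 were lower in CD1d-KO and none higher, with a median of -0.12. These were Nfkb2, a subunit of the non-canonical NF-κB pathway, at 973 ± 29.7 against 1264 ± 101 normalised counts (log2 fold change -0.38 ± 0.08, adjusted p = 0.000137), and Stat3, a transcription factor that acts downstream of HVEM in epithelium, at 2325 ± 190 against 2976 ± 155 (-0.36 ± 0.08, adjusted p = 0.000304). Without the samples with Y-linked counts Stat3 was at -0.26 and did not pass (adjusted p = 0.083). With the stomach score as a covariate neither passed, with Nfkb2 at -0.39 (adjusted p = 0.391) and Stat3 at -0.29 (adjusted p = 0.568). The ligand genes that IELs carry were scarce in these sorted cells. LIGHT (Tnfsf14) had no counts in any sample, Btla at most 8 counts, and Cd160 15.5 ± 8.07 normalised counts in CD1d-KO and 13.4 ± 2.86 in WT (log2 fold change 0.21, adjusted p = 0.921).

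None of 13 tested partners of E-cadherin and adherens junction genes was called, with a median of 0.01. Itgae, which encodes the αE chain of CD103, had 37.9 ± 9.10 normalised counts in CD1d-KO and 59.5 ± 26.3 in WT (log2 fold change -0.66 ± 0.34, adjusted p = 0.334). It is a lymphocyte transcript, itself 1 of the IEL markers, and was lowest in CD1d-KO 2 at 28.6 and highest in WT 1 at 88.4. Among the IEL markers, 16 of 20 were in the table, 2 of 15 tested were lower (Cd8a, -2.58, adjusted p = 0.0435, and Cd3g, -2.46, adjusted p = 0.047) and the median was -2.28. Both calls were lost without WT 1, where the values were -1.42 (adjusted p = 0.514) and -1.51 (adjusted p = 0.474), and without the samples carrying Y-linked transcripts (adjusted p = 0.319 and 0.165). In CD1d-KO 5 of the 16 had at most 3 counts in every sample, and in WT 1.

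Of 15 tested epithelial signals to IELs, 2 were lower and 1 higher in CD1d-KO, with a median of -0.09. Il7, a cytokine on which IELs depend, had 48.6 ± 10.1 normalised counts in CD1d-KO and 87.9 ± 18.01 in WT (log2 fold change -0.86 ± 0.24, adjusted p = 0.0128). Il15ra, which presents interleukin-15 to IELs, had 369 ± 53.6 against 490 ± 20.9 (-0.41 ± 0.11, adjusted p = 0.0149). Aldh1a1, a retinoic acid enzyme, had 5077 ± 2147 against 2307 ± 351 (1.14 ± 0.32, adjusted p = 0.0177). Neither Il7 (-0.67, adjusted p = 0.325) nor Il15ra (-0.25, adjusted p = 0.477) passed without the samples with Y-linked counts, and all 3 lost the call when 1 of several single samples was left out. Leaving out WT 1, for example, gave -0.83 (adjusted p = 0.0778), -0.41 (0.0599) and 1.08 (0.106), values close to those of all 8 samples. On all 8 samples edgeR did not call Il7 (adjusted p = 0.0763) or Il15ra (0.0858).

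None of 13 transcription factors of enterocyte and butyrophilin-like expression was called, with a median of 0.04. The HNF4 core matches in the Btnl1 and Btnl2 windows above are letters only, and binding was not measured. Hnf4a had 38755 ± 2106 normalised counts in CD1d-KO and 39106 ± 1982 in WT (log2 fold change -0.01 ± 0.06, adjusted p = 0.968). Its relative Hnf4g was at 0.24 ± 0.11 (adjusted p = 0.255). The caudal factors Cdx1 and Cdx2, which set intestinal identity, were at 0.03 ± 0.06 (adjusted p = 0.907) and -0.02 ± 0.08 (adjusted p = 0.965).

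The genes most like each member across the 8 samples were picked among 11714 genes by the Pearson r of log2 normalised counts. For Btnl1 they were Tmem106a (r = 0.973), Eci3 (0.971) and 2010003K11Rik (0.966), for Btnl6 Slc43a2 (0.986), Slc3a2 (0.984) and Xpnpep1 (0.979), and for Btnl4 Tmem25 (0.973), A330035P11Rik (0.954) and Crybg1 (0.948). Slc43a2 and Slc3a2 encode proteins of amino acid transport. For Btnl2 they were Ksr1 (0.979), Rhoc (0.973) and Exoc3l4 (0.971), for Tnfrsf14 Ubac1 (0.983), Anks1 (0.981) and Tmem229b (0.974), and for Cdh1 Ctbp2 (0.968), Lclat1 (0.966) and Nckap1 (0.961). Of these 18 genes 2 were called between the genotypes, Tmem229b at -0.57 (adjusted p = 0.00552) and Lclat1 at 0.24 (adjusted p = 0.0466). The r values describe 8 samples of which the highest of many were kept.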

How the data were processed

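RNA-seq of sorted IECs was analysed in 4 CD1d-KO and 4 WT samples, grouped by the genotype label. The authors deposited raw counts of fragments per gene for all 8 samples in 1 table, with 0 columns left unused. According to its header, featureCounts 1.6.4 counted read pairs by their primary alignments, ignoring strand and using an mm10 refGene annotation, whereas the methods name HISAT2 alignment to GRCm39. Coordinates are those of the table. The library kit (KAPA mRNA) selects polyadenylated RNA.

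DESeq2 1.42.0 (R 4.3.3), the study's tool, was fitted to all genes with genotype as the only term, size factors by median of ratios, independent filtering and Cook's rule (the first at a mean normalised count of 2.41), with Benjamini-Hochberg adjustment over 15446 genes. The self-test on simulated data passed before use. FPKM was computed from counts and the listed exon length. Ratios and correlations used exact two-sided permutation tests. The test for ratios was checked against scipy 1.17.1. Alternatives were edgeR 4.0.16, other size factors and filters, a replicate block, covariates, and leaving out samples. Replicates of a genotype differed beyond counting error in all 12 pairs (chi-square per degree of freedom 9.74 to 37.2), so none were copies. P-values measure the spread between 4 mice a genotype. Counting error, at 3.16% of a count of 1000, covers counting only because the reads carry no molecular identifiers.

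The 6 genes, the lists and the tests were chosen with earlier results of these data known. Besides the 6 genes, text names were limited to tested butyrophilin relatives, called genes of the partner, signal, regulator and IEL lists, 4 binding partners, 4 regulators and the 3 genes most like each member. Stomach, B cell, myeloid, stroma, erythroid, crypt and regional lists were given as sums or counts. Of 6 myeloid markers tested 1 was lower in CD1d-KO, of 6 B and plasma cell markers 2, of 11 stomach markers 6, and of 7 proximal intestine genes 1 was higher. None of 24 enterocyte, 12 crypt, 8 epithelial, 3 stroma, 1 erythroid and 6 distal intestine genes tested was called. A further promoter motif that was planned is not reported here.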

Additional observations from a re-analysis of the deposited data

Results flagged for a closer look

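Of 12 groups of 4 samples examined, 1 held a sample far from the others. The WT 2 sample had 2553 normalised counts of Btnl4, while the other WT samples had 2395, 2405 and 2393, so the gap to its nearest neighbour was 0.92 of the whole WT range (above Dixon's 95% critical value for 4 samples). Chance flags about 1 in 20 such groups.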

How the results depend on the processing

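Cdh1 kept its direction and its side of the threshold under all 18 alternatives (0.03 to 0.07 on the log2 scale). Btnl4 was never called either and ranged from -0.15 to 0.01, where the value of 0.01 came with the stomach score as a covariate. Btnl1 was never called but changed sign, to 0.15 with Y-linked status as a term, 0.15 without the samples with Y-linked counts and 0.10 with the stomach score, and it ran from -0.12 to 0.09 when 1 sample was left out. Btnl6 changed sign to 0.05, 0.06 and 0.25 in the same 3 fits and was -0.36 (called) with the enterocyte score. Btnl2 was -0.59 (called) with the enterocyte score and -0.50 to -0.24 with 1 sample left out. Tnfrsf14 was -0.31 and called with a filter on low counts (adjusted p = 0.0494), -0.39 and called with the enterocyte score, 0.05 with the stomach score, and -0.38 to -0.26 with 1 sample left out. The number of the 6 genes called was 0 as reported, 1 with the low-count filter, 3 with the enterocyte score, and 0 to 2 with 1 sample left out. The cause of these shifts was not tested.

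Replicate numbers are shared by the genotypes in the labels, but same-numbered samples deviated together with r of 0.285, 0.025, 0.221 and 0.00395 over 11721 genes, so the numbers were not taken as pairs. With the replicate block 2 of the 6 genes were called, Btnl2 at -0.39 (adjusted p = 0.0185) and Tnfrsf14 at -0.31 (adjusted p = 0.0136), and 569 of all genes (3.86%). Not every CD1d-KO sample matched its own number best.

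Of all genes tested 622 were called, 228 by edgeR, 372 without the samples with Y-linked counts, 97 with the stomach score and 323 to 646 with 1 sample left out. Of the listed genes 17 were called, 11 with Y-linked status as a term, 10 without those samples, 0 with the stomach score, 34 with the enterocyte score and 7 to 20 with 1 sample left out. Among uncalled genes signs changed for Btnl10 (0.41 with the stomach score), Btnl5-ps (0.23 with it), Cdx2 (0.16 with it, and -0.08 to 0.03 with 1 sample left out), Hnf4a (0.03 with the term, 0.03 without the samples with Y-linked counts, 0.05 with the stomach score, and -0.05 to 0.02 with 1 sample left out), Cdx1 (0.00 in both fits for Y-linked counts and -0.05 with the stomach score) and Cd160 (-0.14 with the enterocyte score, and -0.16 to 0.45 with 1 sample left out). The Btnl1 to Btnl2 log2 ratio difference stayed between 0.26 and 0.41 in 10 alternatives. Counting error weighs most on the genes with few counts, among them Btnl9, Btnl10, Btn1a1, Cd160, Cd8a and Cd3g.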
